A study of Mus musculus with 3 samples.

Results

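The 8 genes described here, Mbp, Mog, Mobp, Mag, Mal, Cnp, Ermn and Opalin, encode proteins of myelin and of the cells that make it. They were taken as a list by symbol, and each matched 1 of the 55357 genes in every matrix. The data are 3 single-cell libraries, 1 per group, of brain tissue around the lesion on the left side, and all mice were male C57BL/6 of 6 to 8 weeks. The TBI+IL-25 mice had traumatic brain injury (TBI) and interleukin-25 at 1 µg per mouse, first given within 30 minutes and then daily for 3 days. The TBI+PBS mice had TBI and phosphate-buffered saline for 3 days, and the sham mice are labelled sham, with no treatment stated. The number of mice pooled into a library is not stated, and every difference below is between libraries, with no replicate check and no test.

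Oligodendrocytes wrap axons of the central nervous system in compacted layers of their own membrane, which insulate the axon and speed its signals. The wraps are held together by abundant structural proteins, while other proteins sit on the outermost or innermost layer and face the surroundings or the axon. Some myelin transcripts, Mbp among them, are carried out along the cell's processes and translated next to the growing sheath. Enzymatic dissociation of brain tissue breaks these processes, so myelin RNA and debris are common in brain cell suspensions.

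The libraries held 61372408 UMIs over 14222 barcodes for TBI+IL-25, 58148289 over 10643 for TBI+PBS and 39536447 over 8939 for sham. A UMI (unique molecular identifier) marks 1 captured RNA molecule. After filters and removal of doublets 13532, 10299 and 8710 cells were kept in that order of libraries. The TBI+IL-25 library stood apart in ways that its group label cannot be told apart from. Ribosomal RNA took 1.22% of its UMIs, against 0.158% in TBI+PBS and 0.139% in sham, and haemoglobin genes stood at 0.147 CPM (counts per 1000000 UMIs), against 111 and 98.9 CPM. Libraries shared 24 to 39 barcodes per pair, none of them in an oligodendrocyte-like cell.

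Oligodendrocyte-like cells formed 1 cluster in a clustering that did not use the 8 genes. All 12 markers of the class, such as Sox10, a transcription factor of the lineage, were present in it. It held 639 of the kept TBI+IL-25 cells (4.72%, 95% Clopper-Pearson interval 4.37% to 5.09%), 216 TBI+PBS cells (2.10%, 1.83% to 2.39%) and 44 sham cells (0.505%, 0.367% to 0.678%). Their median depth was 3910 UMIs per cell in TBI+IL-25, 8400.5 in TBI+PBS and 10324 in sham, so values below are given as CPM of the class and, for single cells, after thinning each cell to 1000 UMIs. Markers of other cells were counted in the class too. The 10 microglial markers summed to 505 CPM in TBI+IL-25, 909 CPM in TBI+PBS and 595 CPM in sham, and the 10 astrocyte markers to 744, 319 and 697 CPM. The 8 neuroblast markers summed to 187, 518 and 263 CPM, and 3, 39 and 3 cells of the class held 10 or more of their UMIs. The 8 markers of oligodendrocyte precursors summed to 51.3 CPM in TBI+IL-25, 49.7 in TBI+PBS and 39.8 in sham. Among them 4, 3 and 2 had a UMI in these libraries, and Pdgfra, C1ql1 and Neu4 were at 0 in all 3.

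Promoter sequences are shown for 4 genes, 250 bases upstream of the RefSeq start in GRCm38.p6. Mog and Cnp are the genes with the lowest TBI+IL-25 to sham ratios below, Ermn the one with a higher level in TBI+IL-25, and Mobp the one whose levels lay closest together over the libraries. Capitals mark ACAAAG, the core letters bound by SOX factors such as SOX10, and CTGGCAC or CTGGTAC, letters bound by MYRF, the regulator of myelin genes, each on either strand.
Mog, chr17:37023399-37023648, minus strand: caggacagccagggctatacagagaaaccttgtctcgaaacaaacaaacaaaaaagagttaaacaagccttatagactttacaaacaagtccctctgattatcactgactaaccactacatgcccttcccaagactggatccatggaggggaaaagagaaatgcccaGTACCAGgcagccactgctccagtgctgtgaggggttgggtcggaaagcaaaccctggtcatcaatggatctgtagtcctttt
Cnp, chr11:100574689-100574938, plus strand: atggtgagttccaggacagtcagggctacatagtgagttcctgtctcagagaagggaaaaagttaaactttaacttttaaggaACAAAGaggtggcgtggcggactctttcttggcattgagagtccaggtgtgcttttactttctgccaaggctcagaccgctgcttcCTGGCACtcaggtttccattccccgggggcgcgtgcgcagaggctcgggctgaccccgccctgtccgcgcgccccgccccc
Ermn, chr2:58052865-58053114, minus strand: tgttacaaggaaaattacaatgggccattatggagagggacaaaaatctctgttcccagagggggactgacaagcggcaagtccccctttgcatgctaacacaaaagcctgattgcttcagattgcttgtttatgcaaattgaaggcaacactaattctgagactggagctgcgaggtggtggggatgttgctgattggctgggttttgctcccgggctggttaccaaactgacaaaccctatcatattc
Mobp, chr9:120149492-120149741, plus strand: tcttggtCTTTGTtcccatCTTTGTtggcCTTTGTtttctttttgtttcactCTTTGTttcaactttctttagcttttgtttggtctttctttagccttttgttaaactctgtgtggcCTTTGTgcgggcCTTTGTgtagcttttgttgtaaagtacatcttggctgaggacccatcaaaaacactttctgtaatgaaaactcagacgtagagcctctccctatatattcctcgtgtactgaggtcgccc
RefSeq listed 9 promoters for 7 of the 8 genes, with 3 for Mag and none matched for Mbp. ACAAAG or its reverse complement lay in 5 of the 9, those of Cnp, Mobp and Opalin and 2 of Mag, against 16.5% of 32851 promoters of the same length. It occurred 6 times upstream of Mobp and 0 times upstream of Mog and Ermn. CTGGCAC or CTGGTAC lay in 4 of the 9, those of Cnp and Mog and 2 of Mag, against 5.93% of all, and TATAAA in 0 of the 9, against 12.4%. The 2 Mag promoters with matches overlap on the chromosome and hold the same match of each kind, which is therefore counted in both. No base belonged to both kinds of marked match. These are matches of letters only.

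All 8 genes were concentrated in the oligodendrocyte-like cells of every library. Together they made up 1.74% of the UMIs of the class in TBI+IL-25, 2.31% in TBI+PBS and 2.86% in sham. After thinning, a median of 6 of the 8 genes was detected per cell in TBI+IL-25, and of 7 in TBI+PBS and in sham. At least 5 of the genes were seen in 90.3% of thinned TBI+IL-25 cells, 95.3% of TBI+PBS cells and 97.7% of sham cells. No cell outside the class reached 5 genes at that depth. Of the thinned cells outside the class, 87.4% in TBI+IL-25, 85.7% in TBI+PBS and 88.9% in sham held none of the 8.

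Across the libraries most of the genes stood lowest in TBI+IL-25 and highest in sham, and Ermn stood in the opposite order. Relative to sham, TBI+PBS cells had at least 1.5-fold less of 2 of the 8 genes, Cnp and Opalin, where 8.84% of 9118 measured genes were that much lower, and at least 1.5-fold more of 0, where 21.3% were that much higher. TBI+IL-25 cells had at least 1.5-fold less than sham of 5, Mbp, Mog, Mal, Cnp and Opalin, against 18.1% of 9363 genes, and more of Ermn, against 28.7%. TBI+IL-25 cells had at least 1.5-fold less than TBI+PBS of Mog and Cnp, against 19.1% of 10477 genes, and more of Ermn, against 16.2%. The 3 comparisons share libraries and are not independent of each other.

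The median log2 ratio of the 8 genes was -0.70 for TBI+IL-25 over sham, between medians of -0.79 and -0.61 of the lower and upper ends of the genes' 95% intervals. It was -0.31 (-0.38 to -0.23) for TBI+PBS over sham and -0.44 (-0.49 to -0.40) for TBI+IL-25 over TBI+PBS. The median of all measured genes was 0.13, 0.11 and -0.024 in the same 3 comparisons. All intervals in this account cover counting error only.

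**Figure D1:**
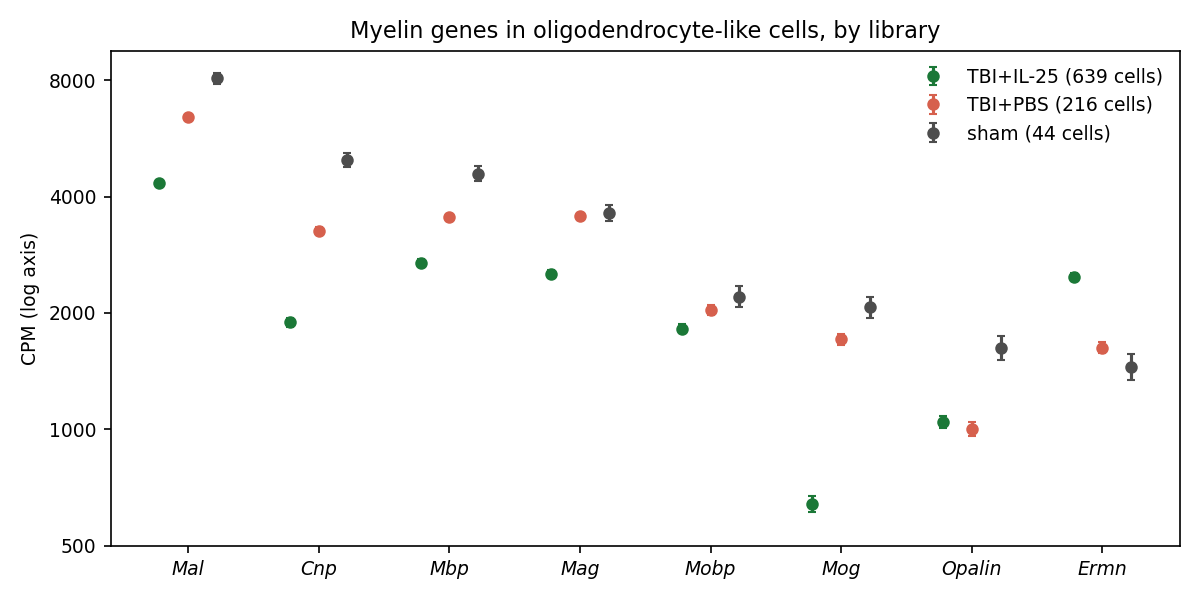
Level of each myelin gene in oligodendrocyte-like cells in CPM on a log axis, with exact Poisson 95% intervals, for the TBI+IL-25, TBI+PBS and sham libraries from left to right within a gene. Ermn is highest in TBI+IL-25 at 2482 CPM, while Mog is lowest there at 640 CPM.

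Mbp (ENSMUSG00000041607) encodes myelin basic protein, which binds the cytoplasmic faces of the membrane together in compact myelin. Its level in oligodendrocyte-like cells was 2699 CPM in TBI+IL-25 (2638 to 2761), 3536 CPM in TBI+PBS (3458 to 3616) and 4583 CPM in sham (4388 to 4785). The 3 intervals did not overlap, and TBI+IL-25 stood at 0.589 times sham (0.561 to 0.618) and TBI+PBS at 0.772 times sham (0.735 to 0.810). In thinned cells it was detected in 86.4% of TBI+IL-25, 91.0% of TBI+PBS and 100% of sham cells.

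Mobp (ENSMUSG00000032517) encodes myelin-associated oligodendrocyte basic protein, another cytoplasmic protein of the compact sheath. It had 1823 CPM in TBI+IL-25 (1773 to 1874), 2035 CPM in TBI+PBS (1976 to 2096) and 2205 CPM in sham (2071 to 2347). TBI+PBS and sham had overlapping intervals. The ratio to sham was 0.827 in TBI+IL-25 (0.772 to 0.886) and 0.923 in TBI+PBS (0.861 to 0.990), so Mobp passed 1.5-fold in neither. The annotation of GENCODE M21 places a predicted gene over Mobp on the same strand, and reads of the pair may be split between them.

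Mal (ENSMUSG00000027375) encodes a membrane protein that sorts cargo to myelin and, in other tissues, to the apical surface of epithelia. Its level was 4329 CPM in TBI+IL-25 (4252 to 4408), 6414 CPM in TBI+PBS (6308 to 6521) and 8098 CPM in sham (7838 to 8365). TBI+IL-25 had 0.535 times the sham level (0.515 to 0.555) and 0.675 times the TBI+PBS level (0.659 to 0.692), and TBI+PBS had 0.792 times the sham level (0.764 to 0.822).

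Cnp (ENSMUSG00000006782) encodes an enzyme of the non-compact myelin channels that links membrane and cytoskeleton. It had 1890 CPM in TBI+IL-25 (1839 to 1942), 3262 CPM in TBI+PBS (3187 to 3339) and 4964 CPM in sham (4761 to 5174). The libraries were farther apart than for Mbp, at 0.381 times sham in TBI+IL-25 (0.362 to 0.400) and 0.657 times sham in TBI+PBS (0.627 to 0.689). With cells weighed equally the log2 ratio of TBI+PBS over sham was -0.54, under 1.5-fold. Per cell, the lowest, median and highest values were 0, 1674 and 6116 CPM in TBI+IL-25, 141, 3127 and 20305 CPM in TBI+PBS and 550, 4988 and 11397 CPM in sham. The 10th and 90th percentiles were 452 and 3227 CPM in TBI+IL-25, 1544 and 4871 CPM in TBI+PBS and 2182 and 6774 CPM in sham, so the TBI+IL-25 median lay below the 10th percentile of sham. Dnajc7 overlaps Cnp on the opposite strand in GENCODE M21, and no source used here says whether counting used strand.

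Mag (ENSMUSG00000036634) encodes a sialic acid-binding adhesion protein on the innermost layer, facing the axon. It had 2519 CPM in TBI+IL-25 (2460 to 2579), against 3554 CPM in TBI+PBS (3475 to 3634) and 3628 CPM in sham (3454 to 3808). TBI+PBS and sham could not be separated at this depth, with a ratio of 0.980 (0.929 to 1.03), while TBI+IL-25 stood at 0.709 times TBI+PBS (0.686 to 0.732).

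Mog (ENSMUSG00000076439) encodes an immunoglobulin-family protein on the outermost layer of the sheath that appears late in myelination, and it is a classical target antigen in experimental autoimmune encephalomyelitis. Its level was 640 CPM in TBI+IL-25 (611 to 671), against 1709 CPM in TBI+PBS (1654 to 1765) and 2068 CPM in sham (1938 to 2205). No other member had lower ratios for TBI+IL-25, at 0.310 times sham (0.286 to 0.336) and 0.375 times TBI+PBS (0.354 to 0.397). TBI+PBS was at 0.826 times sham (0.769 to 0.889). In thinned cells Mog was detected in 44.3% of TBI+IL-25 cells, against 81.6% of TBI+PBS and 88.6% of sham cells. The lowest, median and highest cells held 0, 561 and 3058 CPM in TBI+IL-25, 0, 1700 and 8230 CPM in TBI+PBS and 161, 1803 and 4128 CPM in sham.

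Opalin (ENSMUSG00000050121) encodes a small transmembrane protein found in mammalian oligodendrocytes. It had 1045 CPM in TBI+IL-25 (1007 to 1084), 1002 CPM in TBI+PBS (960 to 1045) and 1626 CPM in sham (1510 to 1748). Both injured libraries lay below sham, at 0.643 times in TBI+IL-25 (0.592 to 0.698) and 0.616 times in TBI+PBS (0.567 to 0.671). Between them the ratio over the class was 1.04 with an interval of 0.986 to 1.10, so a difference was not detectable at this depth. The log2 ratio changed sign to -0.086 with doublets kept. Among cells with 4000 to 8000 UMIs Opalin was lower in TBI+IL-25, at 1007 CPM (955 to 1062), than in TBI+PBS, at 1320 CPM (1214 to 1432). In cells under 4000 UMIs and in cells of 8000 or more, the intervals of these libraries overlapped.

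Ermn (ENSMUSG00000026830) encodes ermin, an actin-binding cytoskeletal protein that appears late in oligodendrocyte maturation. It had 2482 CPM in TBI+IL-25 (2423 to 2541), 1626 CPM in TBI+PBS (1573 to 1681) and 1447 CPM in sham (1338 to 1562). No other member was highest in TBI+IL-25. The ratio was 1.72 for TBI+IL-25 over sham (1.58 to 1.86), 1.53 for TBI+IL-25 over TBI+PBS (1.47 to 1.59) and 1.12 for TBI+PBS over sham (1.03 to 1.22). In thinned cells Ermn was detected in 84.5% of TBI+IL-25, against 66.0% of TBI+PBS and 70.5% of sham cells. With doublets kept the log2 ratio was 0.57 for TBI+IL-25 over sham and 0.45 for TBI+IL-25 over TBI+PBS, and without cells that held 10 or more microglial marker UMIs the second was 0.56, all under 1.5-fold. Galnt5 overlaps Ermn on the opposite strand in GENCODE M21.

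**Figure D2:**
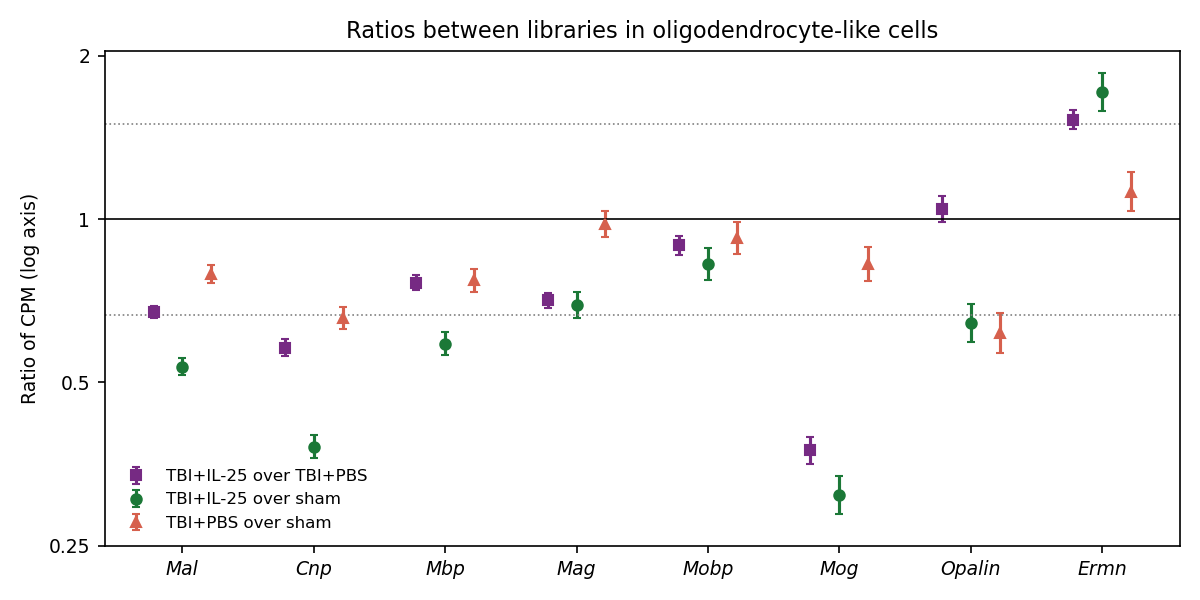
Ratio of CPM between libraries in oligodendrocyte-like cells for each myelin gene on a log axis, with exact conditional binomial 95% intervals. The solid line marks a ratio of 1 and the dotted lines 1.5-fold in either direction. Mog and Cnp lie farthest below 1 in the TBI+IL-25 comparisons and Ermn lies above 1 in all 3.

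Depth differed between the libraries, so the levels were also set side by side among cells of 1 range of depth. Among oligodendrocyte-like cells with 4000 to 8000 UMIs (259 in TBI+IL-25, 68 in TBI+PBS and 9 in sham), Mog stood at 657 CPM in TBI+IL-25 (614 to 701), 1931 in TBI+PBS (1803 to 2066) and 1266 in sham (971 to 1623). Ermn stood at 2745 CPM in TBI+IL-25 (2658 to 2834), 1352 in TBI+PBS (1245 to 1465) and 1123 in sham (846 to 1462). Mal stood at 4045 CPM in TBI+IL-25 (3939 to 4153), 8725 in TBI+PBS (8451 to 9007) and 5922 in sham (5260 to 6645). In this range Mog and Mal were lowest and Ermn highest in TBI+IL-25, as over the class. Mog and Mal in TBI+PBS, however, were above sham here and below it over the class. Depth within the range was not matched further, and its part in the ratios was not tested. The TBI+PBS cells under 4000 UMIs, 29 in number, held 6837 CPM of Mag and 1180 CPM of Mobp, against 3355 and 2151 CPM in the 119 TBI+PBS cells of 8000 UMIs or more. Ribosomal RNA took 1.45% of the class's UMIs in TBI+IL-25, 0.244% in TBI+PBS and 0.254% in sham, and its part in them was not tested either.

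The 8 genes varied only weakly together from cell to cell. Over their 28 pairs in thinned cells, the median Spearman correlation was 0.16 in TBI+IL-25 (601 cells, range -0.10 to 0.52), 0.22 in TBI+PBS (212 cells, -0.18 to 0.53) and 0.11 in sham (44 cells, -0.31 to 0.65). The points of each are cells of 1 library at 1000 UMIs, where counts are sparse. The part of this sparseness in the correlations was not tested. All 8 genes were detected together in 69.3% of unthinned TBI+IL-25 cells, 77.8% of TBI+PBS cells and 88.6% of sham cells, an order that follows depth.

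Other genes of the oligodendrocyte programme were counted in the same cells, and their counts are to be read against the shares of all measured genes. Those were 28.7% higher and 18.1% lower for TBI+IL-25 over sham, 16.2% and 19.1% for TBI+IL-25 over TBI+PBS and 21.3% and 8.84% for TBI+PBS over sham. Of 30 further myelin and myelin-lipid genes, TBI+IL-25 had at least 1.5-fold less than sham of 11 and more of 4. It had less than TBI+PBS of 10 and more of 4, and TBI+PBS had less than sham of 2 and more of 2. The median log2 ratio of the 30 was -0.38 for TBI+IL-25 over sham, -0.27 for TBI+IL-25 over TBI+PBS and -0.19 for TBI+PBS over sham. Cldn11, the tight junction claudin of myelin, stood at 1552 CPM in TBI+IL-25, 3870 in TBI+PBS and 4648 in sham. Tmem88b, a membrane protein gene, was highest in TBI+IL-25, with 1154 CPM there, 590 CPM in TBI+PBS and 655 CPM in sham. Cldn11 and some others of this list were also among the markers that named the class.

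Lineage transcription factors lay on both sides of 1. Of 15 measured, TBI+IL-25 had at least 1.5-fold less than sham of 4 and more of 1. Olig1, which promotes myelin gene expression, stood at 491 CPM in TBI+IL-25, 928 in TBI+PBS and 1135 in sham. Sox2, a factor of neural stem and precursor cells, stood at 395 CPM in TBI+IL-25, 159 in TBI+PBS and 97.3 in sham, a TBI+IL-25 to sham ratio of 4.06 (3.00 to 5.62). Astrocytes express Sox2 too, and the astrocyte marker sum above was 744 CPM in TBI+IL-25, 319 in TBI+PBS and 697 in sham. The part of astrocyte RNA in the Sox2 values was not tested. Between TBI+IL-25 and TBI+PBS, 3 of 15 were lower and 3 higher, and between TBI+PBS and sham 0 of 14 were lower and 2 higher. Their median log2 ratio was -0.29 for TBI+IL-25 over sham, 0.48 for TBI+IL-25 over TBI+PBS and -0.15 for TBI+PBS over sham.

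Genes of disease-associated oligodendrocytes, a state described in injury and neurodegeneration, were at least 1.5-fold higher in 18 of 23 and lower in 2 for TBI+IL-25 over sham. For TBI+PBS over sham 16 of 23 were higher and 0 lower, and for TBI+IL-25 over TBI+PBS 11 were higher and 4 lower. The median log2 ratio was 2.08, 1.08 and 0.52 in these 3 comparisons. Serpina3n, a secreted protease inhibitor, had 547 CPM in TBI+IL-25 and 283 CPM in TBI+PBS from 0 UMIs in sham, at least 82.5-fold and at least 42.7-fold higher against a floor of 3 counts per library. Gadd45b, a stress-response gene, had 1408 CPM in TBI+IL-25, 133 in TBI+PBS and 15.5 in sham. Klk6, a secreted protease of oligodendrocytes, had 170 CPM in TBI+IL-25, 642 CPM in TBI+PBS and 378 CPM in sham.

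Cholesterol is a main lipid of myelin. Of 20 genes of its synthesis and uptake, TBI+IL-25 had at least 1.5-fold less than TBI+PBS of 12 and more of 1, and less than sham of 6 and more of 2. TBI+PBS had more than sham of 5 and less of 0, a share of higher genes near that of all genes. The median log2 ratio of the list was -0.61 for TBI+IL-25 over TBI+PBS, -0.39 for TBI+IL-25 over sham and 0.36 for TBI+PBS over sham. Hmgcs1, an early enzyme of the pathway, stood at 337 CPM in TBI+IL-25, 899 in TBI+PBS and 482 in sham. Of 16 genes of precursors and newly formed oligodendrocytes, 9 were measured for TBI+IL-25 over sham, with 3 higher and 3 lower. Of 10 measured for TBI+PBS over sham 4 were higher and 2 lower, and of 10 for TBI+IL-25 over TBI+PBS 1 was higher and 4 lower. The medians were 0.36, 0.33 and -0.36. Enpp6, which marks newly formed oligodendrocytes, had 67.6 CPM in TBI+IL-25, 222 in TBI+PBS and 164 in sham.

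Genes were ranked by how closely their log2(CPM + 1) over 31 pairs of class and library followed the mean of the 8. Of 15244 genes ranked, the closest were Sox10 (Pearson r 0.98), Ugt8a (0.97), Slc24a2 (0.97), Spock3, Cyp2j12, Myrf, Tmem88b, Gm21984, Sec14l5 and Gm33727. The points share libraries and depth, and Sox10 and Ugt8a are among the class markers. Sox10 itself had 314 CPM in TBI+IL-25, 213 in TBI+PBS and 228 in sham oligodendrocyte-like cells, and Myrf 362, 259 and 254 CPM. SOX10 and MYRF are the factors named above for their motifs, and their transcripts stood highest in TBI+IL-25.

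Outside oligodendrocyte-like cells the genes split into those almost restricted to the class and those also counted elsewhere. Of all UMIs of Mog, Mobp, Ermn, Opalin and Mal, 92.9% to 97.0% per gene and library lay in the class. For Mbp the share was 89.3% in TBI+IL-25, 87.5% in TBI+PBS and 73.7% in sham, and for Mag 90.6%, 91.3% and 71.7%. Cnp had 54.9% in TBI+IL-25, 63.6% in TBI+PBS and 45.1% in sham. These shares also move with the number of oligodendrocyte-like cells, which was lowest in sham.

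**Figure D3:**
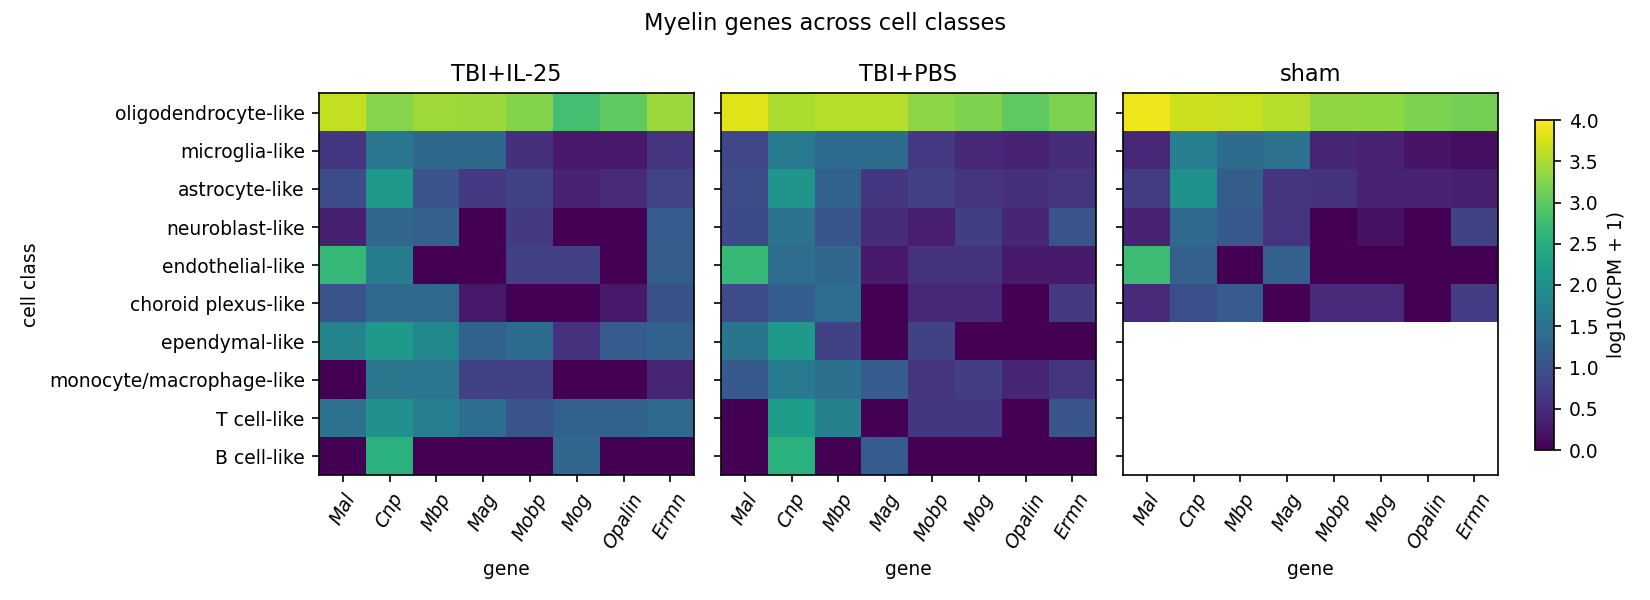
Level of each myelin gene, as log10(CPM + 1), in cell classes of the TBI+IL-25, TBI+PBS and sham libraries. White tiles stand for classes with fewer than 20 cells, and 3 small classes and the unnamed cluster are not drawn. Cnp is visible in astrocyte-like and B cell-like cells and Mal in endothelial-like cells.

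Mobp, Mog, Ermn and Opalin, the genes with the smallest share elsewhere other than Mal, were summed as a measure of myelin RNA found in other cells. Outside the class they gave 48.0 UMIs per 1000 cells in TBI+IL-25 (44.3 to 51.9), 60.3 in TBI+PBS (55.6 to 65.3) and 22.8 in sham (19.8 to 26.3), or 11.6, 11.5 and 5.29 CPM. Both injured libraries were thus higher than sham per cell and per UMI, and they also held more oligodendrocyte-like cells. The part of RNA free in the suspension in this signal was not tested. Few cells carried much of it, with 5 cells in TBI+IL-25, 3 in TBI+PBS and 1 in sham that held 5 or more of these UMIs, which made up 12.6%, 5.92% and 9.09% of the sum.

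Microglia-like cells had 36.3 of these UMIs per 1000 cells in TBI+IL-25 (31.5 to 41.7), 50.5 in TBI+PBS (44.2 to 57.4) and 15.6 in sham (12.3 to 19.5). Astrocyte-like cells had 54.4 in TBI+IL-25 (48.3 to 61.0), 66.6 in TBI+PBS (58.9 to 74.9) and 31.7 in sham (25.9 to 38.4). Both classes stood in the same order over the libraries, and astrocyte-like cells were higher in each. The unnamed cluster, with a median of 812 UMIs per cell and all 10 astrocyte markers, had 35.5 per 1000 cells in TBI+IL-25 and 44.2 in TBI+PBS. Its level was 37.0 CPM in TBI+IL-25 and 33.7 CPM in TBI+PBS, against 14.3 and 13.4 CPM in astrocyte-like cells. Per 1000 cells its intervals overlapped those of microglia-like cells, which were far deeper.

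**Figure D4:**
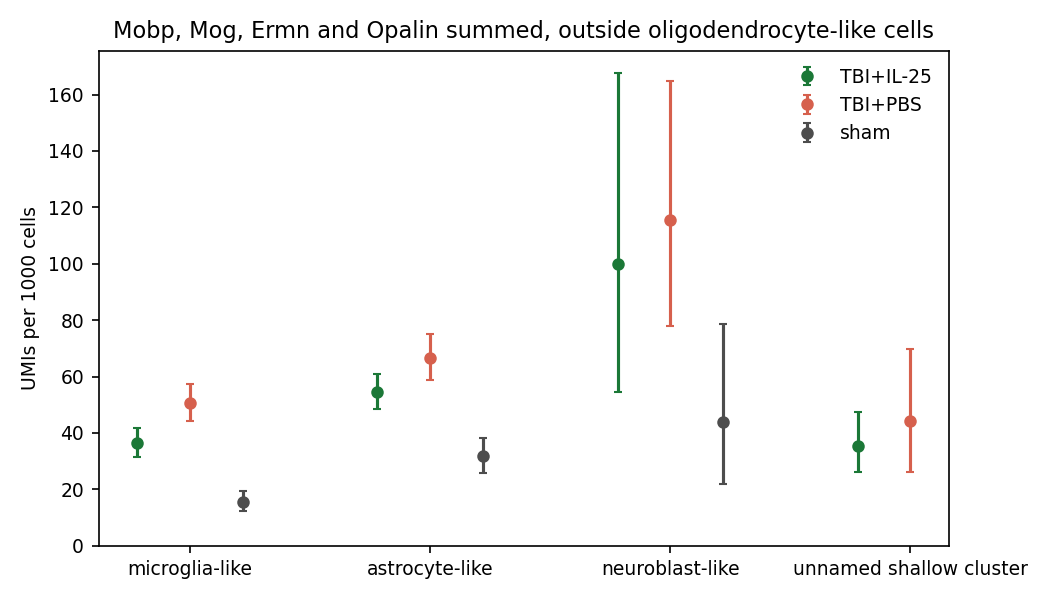
UMIs of Mobp, Mog, Ermn and Opalin summed, per 1000 cells, in 3 large classes and the unnamed shallow cluster, with exact Poisson 95% intervals. The TBI+IL-25, TBI+PBS and sham libraries run from left to right, and the sham library has 1 cell in the unnamed cluster and is not drawn there. Sham is lowest in microglia-like cells at 15.6 and in astrocyte-like cells at 31.7.

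Mag and Mbp stood apart from this signal in microglia-like cells. Mag had 21.8 CPM there in TBI+IL-25 (20.1 to 23.6), 24.8 in TBI+PBS (22.9 to 26.8) and 30.1 in sham (27.7 to 32.6), but 3.76, 3.28 and 3.19 CPM in astrocyte-like cells. A Mag UMI was found in 9.94% of TBI+IL-25, 12.5% of TBI+PBS and 10.9% of sham microglia-like cells (median depth 4730, 4746.5 and 3917 UMIs), against 1.08%, 1.60% and 1.40% of astrocyte-like cells (3489, 4629 and 4511 UMIs). After thinning the shares were 2.42%, 2.82% and 2.81% of microglia-like cells and 0.375%, 0.409% and 0.282% of astrocyte-like cells. The class was spread over its clusters differently in each library. In TBI+IL-25 2556 of 5535 cells lay in cluster 1, and in sham 4259 of 4999 lay in cluster 0. In TBI+PBS 1304 and 1246 of 4596 cells lay in clusters 5 and 1. Within a cluster the libraries had overlapping intervals of Mag, at 35.2 CPM in TBI+IL-25, 31.6 in TBI+PBS and 30.4 in sham for cluster 0 and at 22.0, 24.0 and 22.0 CPM for cluster 1.

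The proportion of Mag to Mobp showed the difference between classes within a library. Per Mobp UMI, microglia-like cells held 8.71 Mag UMIs in TBI+IL-25 (6.80 to 11.3), 6.70 in TBI+PBS (5.38 to 8.42) and 18.4 in sham, while oligodendrocyte-like cells held 1.38, 1.75 and 1.64 and astrocyte-like cells 0.726, 0.705 and 1.09. A Mobp UMI was found in 1.64% of TBI+IL-25 microglia-like cells with a Mag UMI and 1.06% of those without, in 1.74% and 2.04% in TBI+PBS and in 0.184% and 0.561% in sham, with overlapping intervals in each library. Every microglia-like cluster held Mag, at 14.8 to 35.2 CPM in TBI+IL-25, 16.2 to 32.1 in TBI+PBS and 15.6 to 41.6 in sham.

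Mbp had 20.7 CPM in microglia-like cells of TBI+IL-25, 24.1 in TBI+PBS and 25.1 in sham, and 9.38, 16.4 and 13.9 CPM in astrocyte-like cells. Per Mobp UMI this was 8.26 in TBI+IL-25, 6.52 in TBI+PBS and 15.4 in sham microglia-like cells, against 1.48, 1.74 and 2.08 in oligodendrocyte-like cells. Astrocyte-like cells held 1.81 in TBI+IL-25 (1.42 to 2.32), 3.52 in TBI+PBS (2.79 to 4.46) and 4.77 in sham (3.42 to 6.79). They were thus also above the oligodendrocyte-like value in TBI+PBS and sham. The Mbp locus also makes Golli transcripts, which are known from immune and neural cells, and gene-level counts cannot tell them from myelin transcripts.

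**Figure D5:**
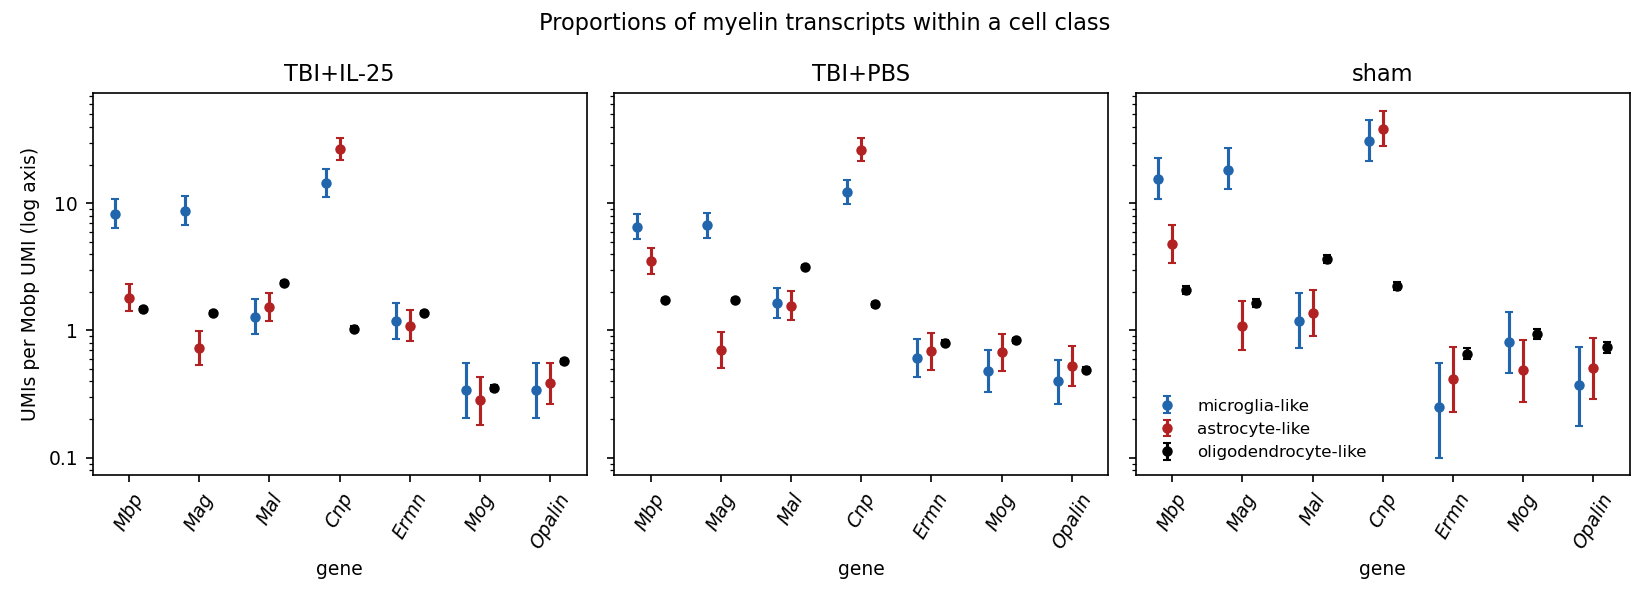
UMIs of 7 myelin genes per Mobp UMI in microglia-like, astrocyte-like and oligodendrocyte-like cells on a log axis, with exact conditional binomial 95% intervals, for the TBI+IL-25, TBI+PBS and sham libraries. Mag and Mbp are displaced upward in microglia-like cells and Cnp in both glial classes, while Mal is displaced downward in both. Mog lies below the oligodendrocyte-like value by varying amounts. In sham astrocyte-like cells it is at 0.488 (0.275 to 0.841), against 0.938 (0.857 to 1.03). Opalin also lies below that value except in TBI+PBS astrocyte-like cells, at 0.526 against 0.492. Mbp is also displaced upward, by less, in astrocyte-like cells of TBI+PBS and sham.

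Cnp was counted broadly. Astrocyte-like cells had 138 CPM in TBI+IL-25 (133 to 144), 122 in TBI+PBS (118 to 127) and 112 in sham (107 to 118), with a UMI in 35.2%, 40.3% and 35.4% of cells. Microglia-like cells had 36.1, 45.4 and 49.9 CPM, with a UMI in 16.2%, 20.9% and 17.2% of cells. The small B cell-like class reached 362 CPM in the 26 cells of TBI+IL-25 (214 CPM at the lower bound) and 354 CPM in the 23 cells of TBI+PBS (231 at the lower bound), where Mobp was at 0 in both. Ependymal-like cells had 139 CPM in TBI+IL-25, 143 in TBI+PBS and 156 in sham.

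Mal was counted in endothelial-like cells at 459 CPM in TBI+IL-25 (372 to 560), 471 in TBI+PBS (431 to 515) and 553 in sham (431 to 699). A Mal UMI was found in 63.3% of the 49 TBI+IL-25, 70.0% of the 220 TBI+PBS and 66.7% of the 36 sham cells of that class. Mobp had 1, 3 and 0 UMIs in the same cells, and Mog the same numbers. The 3 intervals of Mal overlapped, so no difference between libraries was detectable in this class. In microglia-like cells, by contrast, Mal had 3.22 CPM in TBI+IL-25, 6.04 in TBI+PBS and 1.94 in sham.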

How the data were processed

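Single-cell 3' RNA was counted in 3 libraries, 1 per group, after enzymatic digestion, red cell lysis and removal of dead cells, per the labels' protocols. The deposited matrices hold whole-number UMI counts per gene and barcode made by the authors with Cell Ranger, version 7.2.0 for TBI+IL-25 and 7.1.0 for TBI+PBS and sham per the file headers. The submitters' processing notes also name bcl2fastq 5.0.1, Seurat 4.4.0 and GRCm39. How barcodes were selected, and whether counting used strand or intronic reads, is not given in the sources used here. Coordinates in that build are not printed, because the annotation at hand is of another. The promoters and their coordinates are RefSeq's, in GRCm38.p6, and overlaps between genes are those of GENCODE M21 in GRCm38.

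A kept cell had at least 500 UMIs and 300 genes, and its mitochondrial UMIs were not above 20%. Scrublet, run through scanpy 1.11.5 on each library, gave doublet scores. Its own threshold marked 4.60% of TBI+IL-25, 2.39% of TBI+PBS and 0.0447% of sham barcodes, so a score of 0.2 was used for all after the scores were seen, which removed 4.46%, 2.85% and 2.36%. The filters removed a further 55, 43 and 18 barcodes. The labels expected 8000 cells per library. Cells were clustered jointly on 2000 variable genes without the 8 members, with 30 principal components, 15 neighbours, no integration of libraries and Leiden resolution 1 (python-igraph 0.11.9 and leidenalg 0.10.2). Clusters were named where at least 3 markers of a class, each in at least 20% of cells and at 2 or more times the median cluster, were present. These naming thresholds were chosen with the data in view. The rule left cluster 6 unnamed because it was shallow. The other tools were pandas 2.3.3, SciPy 1.17.1, NumPy 2.4.6, Matplotlib 3.10.9, scikit-learn 1.9.0 and Python 3.11.15.

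Summed UMIs of each class in each library were scaled to CPM. Levels carry exact Poisson, ratios exact conditional binomial and shares Clopper-Pearson intervals, all at 95%. Genes with at least 20 UMIs over both libraries were measured, which all 8 members were, and a ratio of 1.5 or its inverse was called higher or lower. A count of 0 is set to a floor of 3 counts per library. The ratio intervals were run on simulated Poisson counts, the model they assume. Those counts held no spread between cells or libraries, so the run checked the calculation only. The members and gene lists were chosen with earlier results of these data known. At most 4 genes of each list and comparison are named, those whose interval lies farthest from 1, with values in every library where they were measured, and the 10 genes whose levels over classes follow the members most closely. Some genes of the lists are not reported here by name.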

Additional observations from a re-analysis of the deposited data

Results flagged for a closer look

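Ratios between libraries ran in opposite directions in oligodendrocyte-like cells and in other classes for several members, with both intervals clear of 1. The difference itself was not tested, and there is 1 library per group. Mal, a member also transcribed outside the lineage, was lower over the oligodendrocyte-like class of both injured libraries than in sham. Among cells of the class with 4000 to 8000 UMIs, Mal was higher in TBI+PBS than in sham. In TBI+PBS over sham its ratio was 3.12 in microglia-like cells (2.18 to 4.58) and 1.83 in astrocyte-like cells (1.34 to 2.51), against 0.792 in oligodendrocyte-like cells. In TBI+IL-25 over sham it was 1.66 in microglia-like cells (1.13 to 2.50) and 1.97 in astrocyte-like cells (1.45 to 2.70), against 0.535.

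Mobp in TBI+PBS over sham had a ratio of 2.27 in microglia-like cells and 1.60 in astrocyte-like cells, against 0.923 in oligodendrocyte-like cells. In TBI+IL-25 over sham its ratio was 1.78 in astrocyte-like cells (1.24 to 2.60), against 0.827. Mog in TBI+PBS over sham stood at 2.20 in astrocyte-like cells, against 0.826, and Opalin at 2.41 in microglia-like cells (1.23 to 5.07), against 0.616. These counts outside the class are small, such as 64 Mog UMIs in TBI+PBS and 21 in sham astrocyte-like cells.

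Cnp in astrocyte-like cells had a ratio of 1.09 in TBI+PBS over sham (1.03 to 1.16) and of 1.23 in TBI+IL-25 over sham (1.16 to 1.31). In oligodendrocyte-like cells the same ratios were 0.657 and 0.381. The largest astrocyte-like cluster differed between libraries. It was cluster 3 in TBI+IL-25 (2783 of 5390 cells), cluster 9 in TBI+PBS (1258 of 4117) and cluster 4 in sham (1478 of 3285). Clusters 2, 4, 7 and 12 held cells of all 3 libraries. In that order of clusters TBI+IL-25 had 937, 614, 285 and 345 cells there. TBI+PBS had 1176, 426, 691 and 175, and sham had 948, 1478, 626 and 230. In cluster 2, which all 3 share, Cnp had 130 CPM in TBI+IL-25 (115 to 146), 136 in TBI+PBS (125 to 147) and 136 in sham (124 to 148), with no difference in the direction of the class ratios. Clusters 4, 7 and 12 were shared as well. In the same order of libraries Cnp had 109, 103 and 99.9 CPM in cluster 4 and 116, 113 and 96.4 in cluster 12, in the direction of the class ratios. In cluster 7 it had 148, 221 and 177 CPM. Intervals of the libraries overlapped within each of these shared clusters. The ratios of the other members above rest on the same classes, and the largest microglia-like cluster likewise differed between libraries. In microglia-like cluster 0 Mal had 7.41 CPM in TBI+PBS (4.84 to 10.9) and 2.13 in sham (1.48 to 2.96). Mobp had 5.13 CPM in TBI+PBS (3.04 to 8.11) and 1.28 in sham (0.792 to 1.95) there. In cluster 5 Mal had 5.91 and 1.31 CPM and Mobp 3.71 and 3.92 CPM, with overlapping intervals. The part of cluster make-up in the class ratios was not tested.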

How the results depend on the processing

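No median reversed its direction under any alternative run, with only 1 library per group behind each. In oligodendrocyte-like cells the median log2 ratio of the 8 members left its counting interval with doublets kept, at -0.90 for TBI+IL-25 over sham and -0.59 over TBI+PBS. With cells weighed equally it was -0.51 for TBI+IL-25 over TBI+PBS and -0.21 for TBI+PBS over sham, and with median-of-ratios size factors -0.39 for TBI+IL-25 over TBI+PBS. Outside the class the members summed gave log2 ratios of 0.21 for TBI+PBS over sham, 0.11 for TBI+IL-25 over sham and -0.11 for TBI+IL-25 over TBI+PBS. With cells weighed equally these were 0.35, 0.19 and -0.17, and as UMIs per cell instead of CPM 0.50, 0.047 and -0.45. Without Cnp, an alternative chosen after seeing the data, as was a minimum of 4000 UMIs per cell, they were 0.42 for TBI+PBS over sham and -0.34 for TBI+IL-25 over TBI+PBS. The cause of these shifts was not tested. Of the single members' values, 235 stayed within their interval and 29 did not, and only ratios whose interval included 1 changed sign, Mag in TBI+PBS over sham and Opalin in TBI+IL-25 over TBI+PBS. Counts of members past 1.5-fold differed with doublets kept, where TBI+IL-25 had 6 lower and 0 higher over sham and 4 lower and 0 higher over TBI+PBS. With cells weighed equally 4 were lower in TBI+IL-25 over TBI+PBS and 1 in TBI+PBS over sham. With at least 4000 UMIs per cell 3 were lower in TBI+IL-25 over TBI+PBS. Without cells of 10 or more microglial marker UMIs 0 were higher in TBI+IL-25 over TBI+PBS. Shares of all measured genes are given for the main run only, so these counts have no share to be read against. No paired analysis was possible because each group has 1 library, and none could be left out. The number of cells limits the sham values of the oligodendrocyte-like class, which rest on 44 cells.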

Other observations

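The T cell-like class carried Mbp at 49.9 CPM in 93 TBI+IL-25 cells and 54.2 CPM in 65 TBI+PBS cells. In the same cells Mobp had 3 UMIs in TBI+IL-25 and 1 in TBI+PBS. Cnp stood at 106 CPM in TBI+IL-25 and 173 CPM in TBI+PBS T cell-like cells.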
